A study of Saccharomyces cerevisiae with 6 samples.

Results

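RNA polymerase I transcribes the repeated ribosomal DNA into the precursor of the large ribosomal RNAs, and its genes were compared between budding yeast strains with and without an artificial chromosome. Members were chosen by systematic name: 9 subunit genes and RRN3, an initiation factor that is not a subunit, 10 genes in all. Of these, 9 have a row among the 7554 transcripts of the table. RPA14, which encodes a stalk subunit, is not analysed here. Strain yMH007 carries dChr, an artificial chromosome that stores data, and strain yMH104 carries an empty plasmid as the control. Each strain has 3 libraries of total RNA. Both grew at 30 °C in liquid medium lacking uracil, from an optical density of 0.2 to a harvest at 1.0 to 1.2. The labels give neither the host genotype, nor the number of clones behind a strain, nor whether the libraries of a strain came from separate cultures. The p-values therefore measure the spread between these libraries, which may be technical.

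The enzyme is built around a catalytic pair, RPA190 and RPA135, on an assembly platform of RPC40 and RPC19, which RNA polymerase III also uses. RPA43 forms the stalk together with RPA14 and binds RRN3, the factor that brings the enzyme to the ribosomal DNA promoter. RPA49 and RPA34 form a heterodimer that aids initiation and elongation, and RPA12 carries a zinc ribbon needed for cleavage of the nascent RNA. The remaining subunits are shared by all nuclear RNA polymerases and are treated as a separate list. In yeast, genes of this enzyme are known as part of the ribosome biogenesis regulon, whose promoters often hold the PAC and RRPE elements. PAC took its name from genes of polymerases A and C, the older names of RNA polymerases I and III. The repressors Dot6 and Tod6 bind PAC, and Stb3 binds RRPE.

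These elements were looked up in the promoters because the members share a regulon and were measured together. Windows ran from 250 bases before to 50 bases after the annotated start codon, taken from RefSeq R64, the assembly behind sacCer3. The PAC core was GATGAG and the RRPE core was AAAATTTT, both searched on either strand. The RRPE core is its own reverse complement, and its letters cannot overlap with a PAC core. Below are 60-base stretches around the cores of the 8 members that hold PAC, 5′ to 3′ on the strand of the gene, with matches to either core in capitals (CTCATC is the PAC core on the other strand).
RPA190: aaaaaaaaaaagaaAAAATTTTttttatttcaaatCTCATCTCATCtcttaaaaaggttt
RPA135: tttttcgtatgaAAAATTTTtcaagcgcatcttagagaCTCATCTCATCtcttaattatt
RPC40: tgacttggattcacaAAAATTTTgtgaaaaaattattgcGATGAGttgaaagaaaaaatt
RPC19: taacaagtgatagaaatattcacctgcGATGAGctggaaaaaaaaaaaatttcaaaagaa
RPA43: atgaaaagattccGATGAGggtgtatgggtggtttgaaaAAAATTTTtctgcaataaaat
RPA49: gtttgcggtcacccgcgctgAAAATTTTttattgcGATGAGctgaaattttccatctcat
RPA34: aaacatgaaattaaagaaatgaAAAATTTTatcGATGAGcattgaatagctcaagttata
RRN3: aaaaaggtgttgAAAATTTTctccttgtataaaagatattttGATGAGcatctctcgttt

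The stretches lie at chrXV:960780-960839 (plus strand, RPA190), chrXVI:581284-581343 (minus strand, RPA135), chrXVI:746898-746957 (minus strand, RPC40) and chrXIV:412617-412676 (plus strand, RPC19). The others lie at chrXV:960318-960377 (minus strand, RPA43), chrXIV:182714-182773 (minus strand, RPA49), chrX:140294-140353 (plus strand, RPA34) and chrXI:208031-208090 (plus strand, RRN3). RPA190 and RPA135 each hold a doubled PAC core on the opposite strand, in which copies share a base. In 7 members PAC and RRPE stood 3 to 22 bases apart, closest in RPA34 and farthest in RRN3. RRPE came first in each of these except RPA43, where PAC came first. RPC19 held PAC but no exact RRPE core. RPA135 held a further PAC core across its start codon.

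RPA12 is shown whole because its window held neither core, although its transcript was among the most reduced. Its 300 bases lie at chrX:554945-555244 on the plus strand and carry no capitals for that reason.
RPA12: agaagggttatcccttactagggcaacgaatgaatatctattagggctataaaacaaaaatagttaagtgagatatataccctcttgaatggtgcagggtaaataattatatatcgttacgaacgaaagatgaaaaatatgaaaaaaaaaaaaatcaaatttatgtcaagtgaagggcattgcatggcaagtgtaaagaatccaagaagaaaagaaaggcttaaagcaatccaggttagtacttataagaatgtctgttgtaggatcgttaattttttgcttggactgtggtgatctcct

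Of the 9 members, 8 held PAC, 7 held RRPE and 7 held both. Among 6001 protein-coding promoters of the 16 nuclear chromosomes, 20.4% held PAC, 9.03% held RRPE and 4.38% held both. RNA polymerase III subunit genes held PAC in 8 of 10 promoters. The genes specific to RNA polymerase II held it in 1 of 7, and the subunit genes shared by the 3 polymerases in 0 of 5. A match describes these letters only; binding was not measured.

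**Figure D1:**
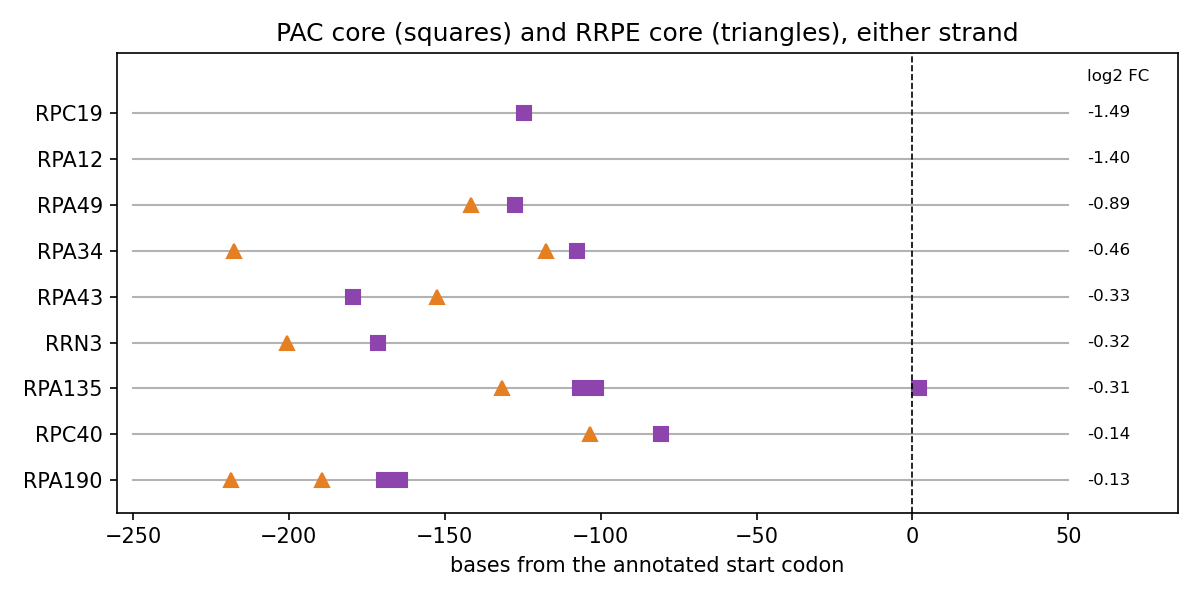
Positions of the PAC core (squares) and the RRPE core (triangles), on either strand, in bases from the annotated start codon of 9 RNA polymerase I genes, ordered by log2 fold change (right). RPA12 (-1.40) has neither core in its window, and RPC19 (-1.49) has PAC alone.

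All 9 measured members were lower in the dChr strain by estimate, and 4 of them were called. RPC19, RPA12, RPA49 and RPA34 were called lower, and 0 members were called higher. The catalytic subunits, RPC40, RPA43 and RRN3 were not called, which does not show that they were unchanged. Values are TPM, a length-normalized share of each library's total, so every change is relative to that total. In RNA from a whole culture, fewer cells expressing a gene and less RNA per cell cannot be told apart. Each of the 9 averaged 1 TPM or more across the 6 libraries, the condition for being tested. The call is an adjusted p under 0.05 from limma on log2(TPM + 1), with adjustment over 5938 tested transcripts. Over all of these 9.16% were called lower and 4.19% higher, against 4 and 0 of the 9 members. With any single library left out, RPC19, RPA12 and RPA49 were still called, and RPA34 was not. The median log2 fold change was -0.33 over the members and -0.04 over all tested transcripts. Estimates below 0 were not particular to the members. They were found for 4 of 4 tested shared subunits, 7 of 8 polymerase III genes and 4 of 7 polymerase II genes. The same held for 9 of 12 tested factors of the ribosomal DNA and 6 of 8 regulators. The share of all tested transcripts with an estimate below 0 was not computed.

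**Figure D2:**
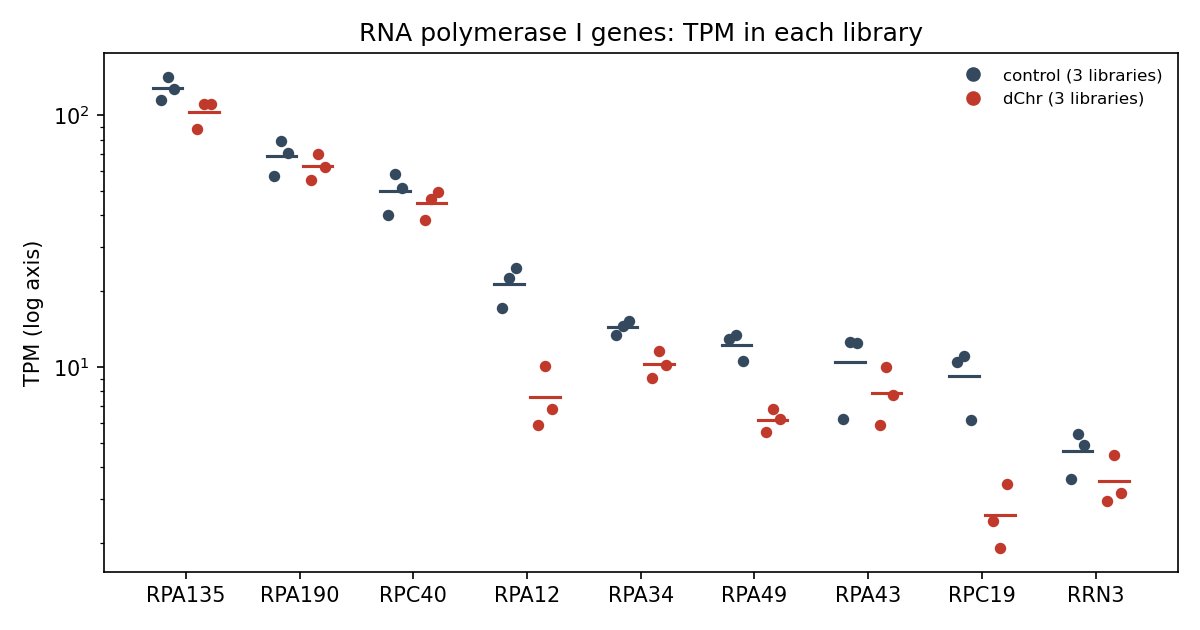
TPM (log axis) of 9 RNA polymerase I genes in each of 3 control and 3 dChr libraries, ordered by control mean; bars mark the group means. The libraries of the strains do not overlap for RPA135, RPA12, RPA34, RPA49 and RPC19.

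RPC19 encodes the small partner of RPC40 in the assembly platform. Its TPM were 2.44, 1.91 and 3.43 in dChr libraries 1, 2 and 3, and 10.5, 11.02 and 6.17 in control libraries 1, 2 and 3. All dChr libraries lay below all control libraries, and control library 3 was the lowest of its strain. The mean fell from 9.22 ± 2.66 TPM to 2.59 ± 0.772 TPM (SD, n = 3), a log2 fold change of -1.49 ± 0.25 (SE, limma adjusted p = 0.0124). With the replicate number as a block in the model the call was lost (limma adjusted p = 0.0512). The gene, YNL113W, lies at chromosome XIV 412771 to 413199. A row of the table named YNL114C, a systematic name next to that of RPC19 which RefSeq does not place, was at 1.40 TPM in dChr library 1 and at 0 in the other libraries.

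RPA12 encodes the subunit for RNA cleavage. Its dChr libraries held 5.88, 10.1 and 6.82 TPM, and its control libraries held 17.2, 22.5 and 24.7 TPM. The highest dChr library stayed well below the lowest control library. The mean fell from 21.5 ± 3.88 to 7.61 ± 2.23 TPM (SD, n = 3), or 35.4% of the control level on the TPM scale, with a log2 fold change of -1.40 ± 0.22 (SE, limma adjusted p = 0.00884). RPA12 (YJR063W) lies at chromosome X 555195 to 555572, and at 378 coding bases it is the shortest of the 9.

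RPA49 and RPA34 encode the heterodimer. RPA49 held 5.52, 6.79 and 6.19 TPM in dChr against 12.9, 13.4 and 10.5 TPM in control. Its libraries were tight in the dChr strain and did not overlap with the control. The mean fell from 12.3 ± 1.53 to 6.17 ± 0.633 TPM (SD, n = 3), with a log2 fold change of -0.89 ± 0.13 (SE, limma adjusted p = 0.0075).

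RPA34, the partner of RPA49, fell less. Its dChr libraries were at 9.09, 11.5 and 10.2 TPM and its control libraries at 13.4, 14.6 and 15.3 TPM, again without overlap. The log2 fold change was -0.46 ± 0.12 (SE, limma adjusted p = 0.0473), close to the threshold. No fit on 5 of the 6 libraries kept the call (limma adjusted p from 0.0554 to 0.166). RPA49 (YNL248C) is at chromosome XIV 181361 to 182608 and RPA34 (YJL148W) at chromosome X 140437 to 141138.

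Neither catalytic subunit was called. RPA190, the largest subunit, held 55.3, 70.1 and 62.5 TPM in dChr against 57.3, 78.8 and 70.7 TPM in control. Library 1 was the lowest in either strain, and the strains overlapped. The log2 fold change was -0.13 ± 0.15 (SE, limma adjusted p = 0.615), with a 95% confidence interval from -0.48 to 0.22.

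RPA135, the second largest subunit, was at 88.6, 111 and 111 TPM against 115, 142 and 127 TPM. Its libraries did not overlap, but the log2 fold change of -0.31 ± 0.13 did not pass after adjustment (SE, limma adjusted p = 0.175; 95% confidence interval -0.61 to -0.0036 before adjustment). Rescaling to nuclear protein-coding genes alone made it a call (limma adjusted p = 0.0179). Including RPA135, 5 of the 9 members had dChr libraries all below the control libraries, where 21.2% of all tested transcripts did. RPA190 (YOR341W) is at chromosome XV 960987 to 965981 and RPA135 (YPR010C) at chromosome XVI 577585 to 581196.

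RPC40, the larger partner of RPC19, was at 38.5, 46.5 and 49.6 TPM against 40.3, 58.2 and 51.3 TPM, and the strains overlapped. Its log2 fold change was -0.14 ± 0.16 (SE, limma adjusted p = 0.615; 95% confidence interval -0.53 to 0.24). The interval of RPC19, from -2.10 to -0.89, lay wholly below that of RPC40, its partner in the heterodimer; the difference between them was not tested. RPC40 (YPR110C) lies at chromosome XVI 745828 to 746835.

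RPA43 and RRN3 meet in the initiating enzyme, and neither was called. RPA43 held 5.86, 10.002 and 7.76 TPM in dChr against 6.24, 12.6 and 12.5 TPM in control. Control library 1 lay among the dChr libraries, and the log2 fold change was -0.33 ± 0.29 (SE, limma adjusted p = 0.515; 95% confidence interval -1.04 to 0.37). RRN3 was at 2.95, 4.46 and 3.16 TPM against 3.59, 5.42 and 4.90 TPM. It had the lowest mean of the 9 in the control, and its log2 fold change was -0.32 ± 0.19 (SE, limma adjusted p = 0.345; 95% confidence interval -0.78 to 0.15). In simulated data, the same fit recovered 34.5% of transcripts changed 1.5-fold on the scale of TPM + 1. These were drawn from all tested levels, so the share is not specific to RPA43 or RRN3. RPA43 (YOR340C) lies at chromosome XV 959202 to 960182, divergent from RPA190 with 804 bases between the start codons, and RRN3 (YKL125W) at chromosome XI 208247 to 210130. Each of the 9 genes has a single coding exon, and RefSeq places no other gene over any of them. Transcripts that RefSeq does not place, YNL114C among them, were not checked for overlap.

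The members also differed from each other in level. Per length, the highest mean was 27.6 times the lowest in the control and 39.96 times in dChr. RPA135 led in both strains, at 128 ± 13.7 TPM in the control, and RPA190 and RPC40 came next. RPA190 and RPC40 overlapped in their control libraries and did not overlap in the dChr libraries. RPA12 ranked 4 in the control and did not overlap with RPA34 below it. In the dChr strain RPA34 took rank 4, and RPA43, RPA12 and RPA49 followed, each overlapping with the gene above it. RPC19 was above RRN3 in the control with no overlap, and below it in the dChr strain with overlap.

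**Figure D3:**
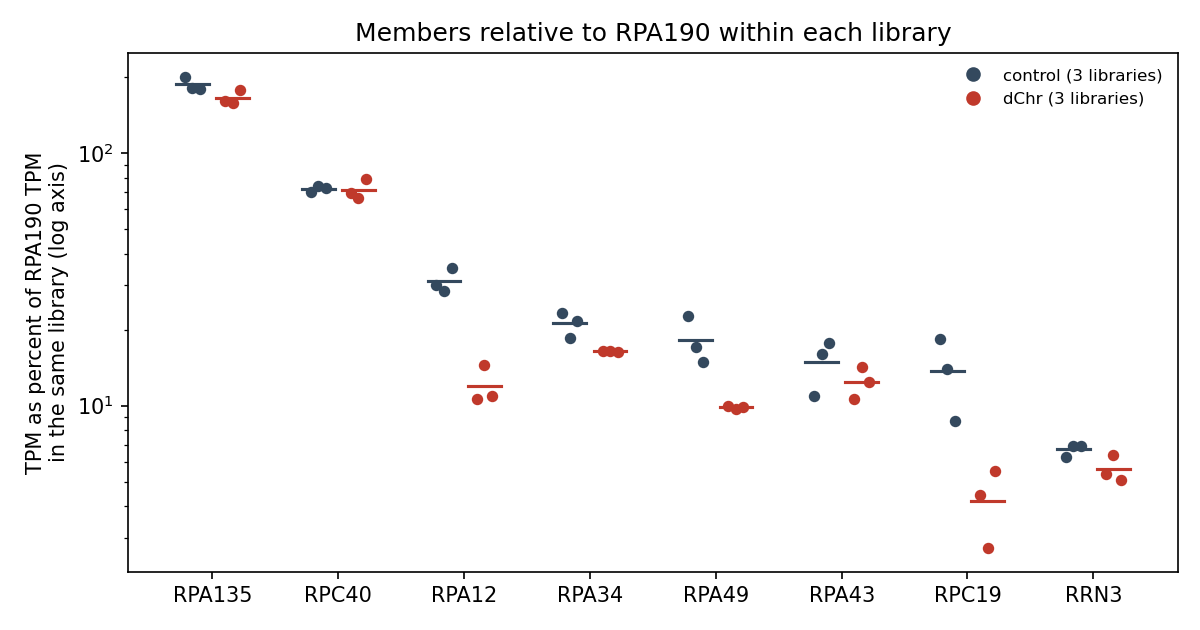
TPM of 8 RNA polymerase I genes as a percent of RPA190 TPM in the same library (log axis); bars mark the means of 3 libraries per strain. RPC19, RPA12, RPA49 and RPA34 are lower relative to RPA190 in every dChr library than in any control library, and so is RPA135 by a smaller margin. The share of all tested transcripts that do so was not computed.

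Setting each member against RPA190 in the same library removed the scaling of the library and is given as a description, without a test. In control libraries RPA12 was 31.2 ± 3.37% of RPA190, and in dChr libraries 11.99 ± 2.12% (SD, n = 3). RPC19 stood at 13.7 ± 4.80% and 4.204 ± 1.39%, and RPA49 at 18.1 ± 3.95% and 9.86 ± 0.160%. These subunits were thus lower relative to the largest subunit. RPA190 itself moved little by estimate (log2 fold change -0.13 ± 0.15 SE), so these ratios largely repeat the levels. The share of all tested transcripts that separate from RPA190 in this way was not computed. RPA34 was at 21.2 ± 2.44% against 16.4 ± 0.104%, and its 3 dChr libraries were nearly equal. RPC40 was at 72.3 ± 1.80% in the control and 71.8 ± 6.72% in the dChr strain, with overlapping libraries. RPA43 and RRN3 overlapped too.

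RPA12, RPC19 and RPA34, all called, are the shortest of the 9 genes, while the called RPA49 is longer. Values by coding length are given beside them. RPA12, RPC19 and RPA34 have 378, 429 and 702 coding bases, RPA49 has 1248, and the uncalled RPA190 has 4995. RPA43 and RPC40, at 981 and 1008 bases, were shorter than RPA49 and were not called. Over all tested nuclear protein-coding genes, 7.16% of those under 500 bases were called lower, 9.21% of those from 500 to under 1500 bases and 10.8% of longer ones. The shortest class had the lowest share and also the lowest median level, 6.51 TPM against 11.3 and 10.9 TPM. Whether length or level bears on the calls was not tested.

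Subunit genes of the other RNA polymerases were set beside these values. Of the 4 tested subunits shared by the 3 polymerases, limma called 0 (0 at an unadjusted p under 0.05). Over all tested transcripts 9.16% were called lower and 4.19% higher. In lists of 4 to 8 genes, as here and below, 0 calls lies near these shares. RPB8 averaged 25.9 ± 5.58 TPM in dChr and 31.2 ± 4.03 TPM in control libraries, and RPB10 at 19.8 ± 4.49 and 24.6 ± 2.07 TPM (SD, n = 3). RPB5 had a log2 fold change of -0.07 ± 0.13 (SE, limma adjusted p = 0.776). RPC10 was at 9.58 ± 2.02 against 16 ± 6.59 TPM, with overlap (SD, n = 3). Its log2 fold change of -0.63 ± 0.28 was larger in size than that of the called RPA34 (SE, limma adjusted p = 0.20). RPO26, the untested shared subunit, was under 1 TPM in each library and was below the filter, as were RPC53 and RPC17 of RNA polymerase III. Whether assembled transcripts took reads of these genes was not tested.

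Of 7 genes specific to RNA polymerase II, 0 were called (2 at an unadjusted p under 0.05). Across all tested transcripts the shares called lower and higher were 9.16% and 4.19%. The dChr libraries lay all below the control libraries for 2 of the 7 and all above for 1. Separation below the control was seen in 21.2% of all tested transcripts. The largest of the 7, RPO21, had a log2 fold change of 0.26 ± 0.10 (SE, limma adjusted p = 0.16). RPB2, its second largest, was at 78.9 ± 3.80 against 78.7 ± 11.96 TPM. RPB4, a stalk subunit, was lower without overlap, with a log2 fold change of -0.50 ± 0.15 (SE, limma adjusted p = 0.0784). Of 8 tested genes specific to RNA polymerase III, 0 were called (2 at an unadjusted p under 0.05). In 3 of the 8, all dChr libraries lay below all control libraries. RPO31 had a log2 fold change of -0.33 ± 0.11 (SE, limma adjusted p = 0.102) and RET1 one of -0.13 ± 0.13 (SE, limma adjusted p = 0.571). RPC82 came closest to a call, at 0.926 ± 0.152 against 2.19 ± 0.410 TPM without overlap (SD, n = 3). Its log2 fold change of -0.72 ± 0.19 was larger in size than that of the called RPA34 (SE, limma adjusted p = 0.0523). The median log2 fold changes were -0.30 for the shared subunits, -0.09 for RNA polymerase II and -0.16 for RNA polymerase III. Under other settings, 1 or 2 genes of the polymerase II and III lists were called, RPO21 higher and the rest lower.

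**Figure D4:**
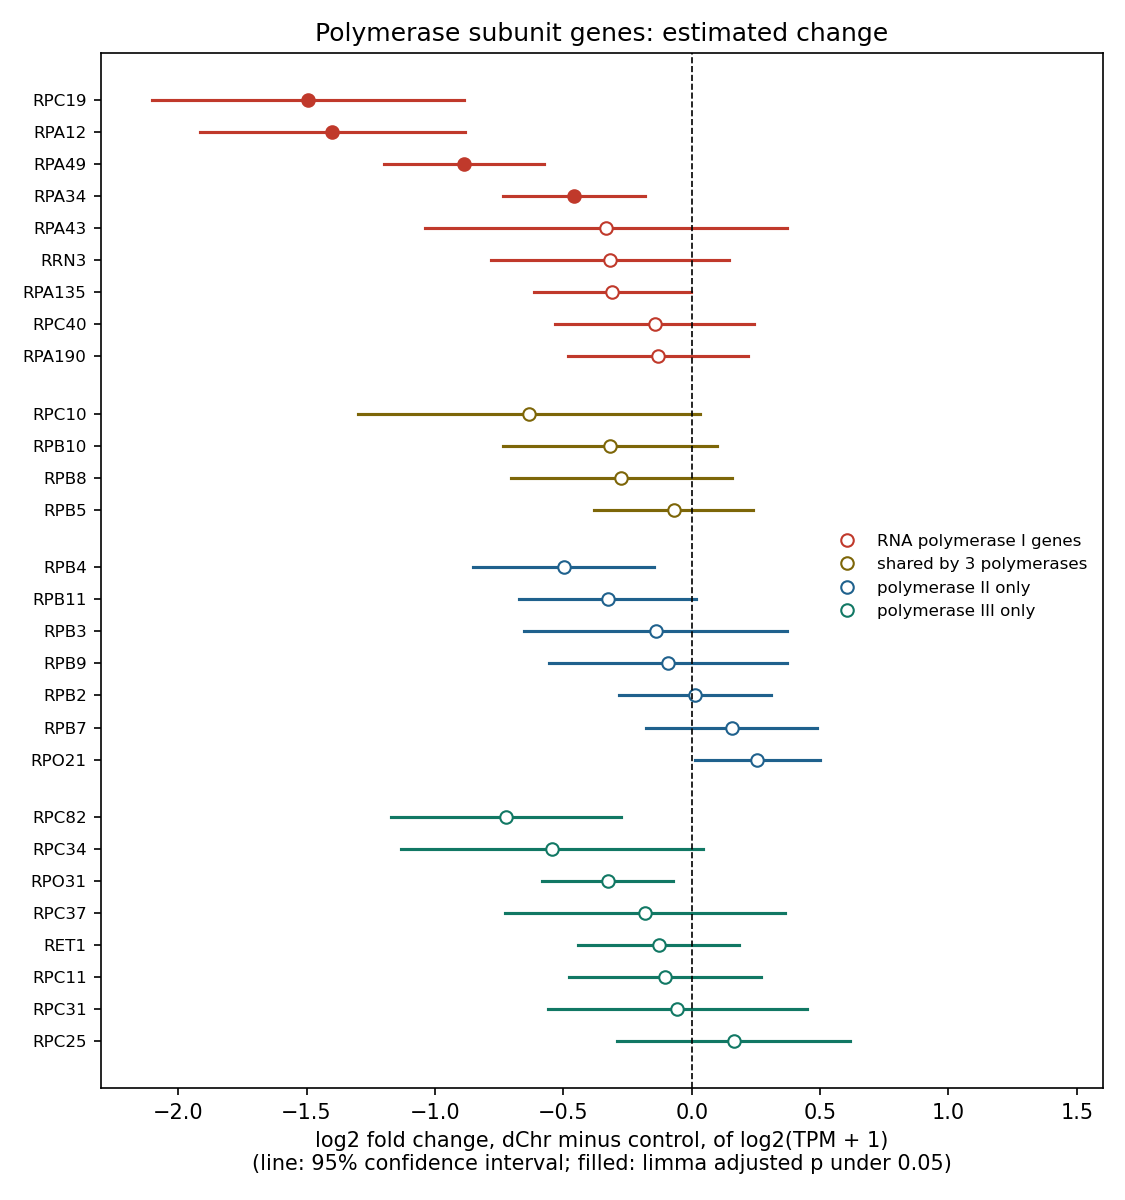
Estimated log2 fold change, dChr minus control, of polymerase subunit genes with 95% confidence intervals, from limma on log2(TPM + 1); filled points passed at an adjusted p under 0.05. The 4 filled points are RPC19, RPA12, RPA49 and RPA34.

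The difference itself was tested as the within-library log2 ratio of each member to its counterpart in the other enzymes. Of 12 pairs listed, 10 could be compared, the others involving RPA14. In an exact permutation test, two-sided, 3 libraries against 3 cannot go below p = 0.1, and after adjustment over the 10 pairs the smallest value was 0.167. No pair could therefore pass. In 6 pairs, each with RPA190, RPA135, RPA12 or RPC19 as the member, all dChr ratios lay below all control ratios. The 10 pairs draw on 6 members, RPA43 and RPC40 included. For ratios of these 6 members to every tested transcript, pooled, this held in 41.7%.

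RPA190 against RPO21 gave log2 ratios of -1.23, -1.03 and -0.93 in the dChr libraries and of -0.84, -0.59 and -0.59 in the control libraries. The dChr ratios were lower by 0.39 on average without overlap (exact permutation p = 0.1, adjusted 0.167), where 18.0% of the ratios of RPA190 to a tested transcript separated in this direction. Against RPO31 the ratio of RPA190 overlapped, at 1.33 ± 0.053 for dChr and 1.13 ± 0.193 for control (SD, n = 3). RPA135 had lower ratios without overlap to RPB2, by 0.32, and to RET1, by 0.18, while 36.6% of its ratios separated in this way. RPA12 was lower by 1.31 relative to RPB9 and by 1.30 relative to RPC11, its counterparts with a zinc ribbon. RPC19 was lower by 1.17 relative to RPB11. For RPA12 and RPC19, 88.8% and 87.6% of the ratios to any tested transcript separated in this direction. The ratios of RPA43 to RPB7 and RPC25 and of RPC40 to RPB3 overlapped between strains.

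**Figure D5:**
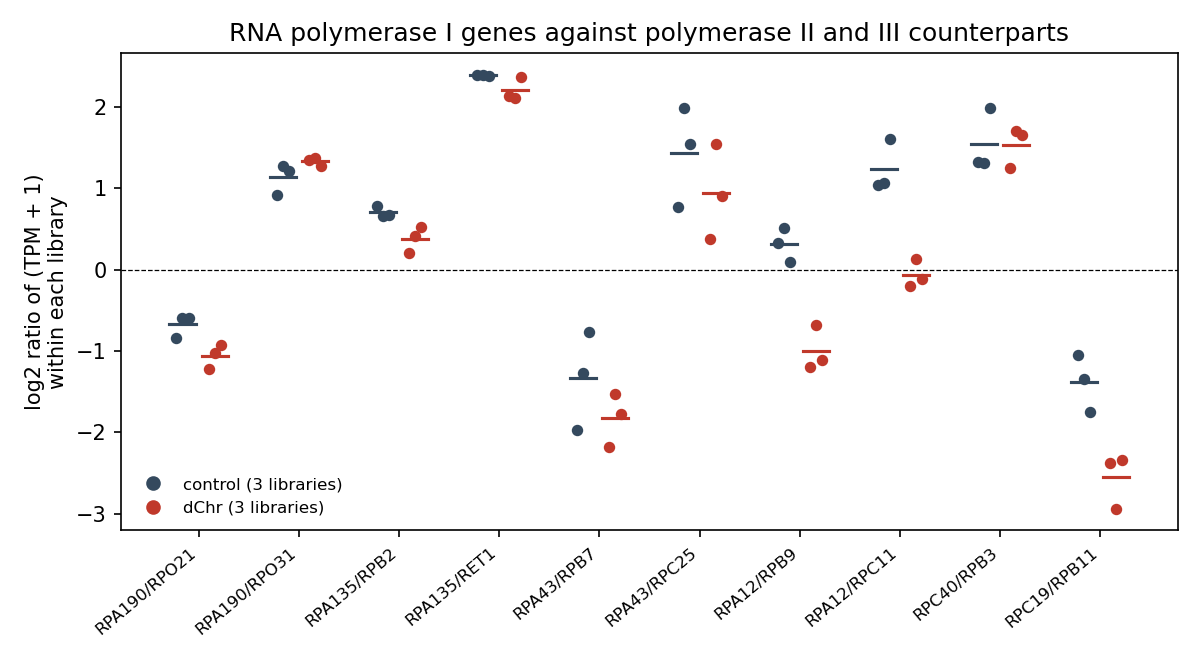
Log2 ratio of (TPM + 1) within each library for 10 pairs of an RNA polymerase I gene and its counterpart in RNA polymerase II or III; bars mark the means of 3 libraries per strain. The largest shifts are those of RPA12 against RPB9 and RPC11 and of RPC19 against RPB11.

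Factors that act with the enzyme at the ribosomal DNA were mostly not called. Of 14 listed genes 13 have a row and 12 were tested: 1 fell and 0 rose (5 at an unadjusted p under 0.05, all of them lower), with a median log2 fold change of -0.21. Over all tested transcripts 9.16% were called lower. The called gene was RRN11, a subunit of the core factor that binds the promoter. Its dChr libraries held 1.13, 0.663 and 1.14 TPM and its control libraries 3.06, 4.34 and 3.58 TPM, without overlap. RRN11 fell by 1.24 ± 0.19 on the log2 scale (SE, limma adjusted p = 0.00901). RRN6 and RRN7 complete the core factor. RRN6 was at 7.51 ± 1.33 against 9.85 ± 0.715 TPM (limma adjusted p = 0.148) and RRN7 at 0.901 ± 0.141 against 1.15 ± 0.321 TPM (SD, n = 3). UAF30, of the upstream activating factor, TOP1, a DNA topoisomerase, and SPT15, the TATA-binding protein, were not called. Their log2 fold changes were -0.60 ± 0.21, -0.53 ± 0.17 and -0.26 ± 0.09 (SE, limma adjusted p = 0.119, 0.0951 and 0.127). For these genes, RRN6 and RRN11, all dChr libraries lay below all control libraries. That made 5 of the 12 tested factors, where 21.2% of all tested transcripts separated in this way. HMO1, a high mobility group protein of active ribosomal DNA, was at 65.8 ± 3.39 against 66.1 ± 3.64 TPM, and NET1, a nucleolar protein, at 17.7 ± 1.15 against 16.3 ± 1.23 TPM.

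Regulators of the ribosome biogenesis regulon were read next. Of 8 tested, 1 was called lower and 0 higher (2 at an unadjusted p under 0.05). Over all tested transcripts 9.16% were called lower and 4.19% higher. TOD6, a repressor that binds PAC, held 1.37, 1.90 and 1.77 TPM in dChr against 3.57, 4.54 and 3.02 TPM in control, with no overlap (log2 fold change -0.81 ± 0.18 SE, limma adjusted p = 0.032). Its call was lost when any single library other than control library 3 was left out, and with the replicate block. DOT6, its paralog, went the other way by estimate, with a log2 fold change of 0.26 ± 0.13 (SE, limma adjusted p = 0.263). It was called higher after median-ratio scaling or quantile normalization (limma adjusted p = 0.0494 and 0.0347). SCH9, a growth kinase that acts on these repressors, was at 17.6 ± 0.872 against 23.5 ± 3.56 TPM (SD, n = 3, limma adjusted p = 0.101), and was called lower with median-ratio scaling, with nuclear protein-coding genes alone and without control library 3 (limma adjusted p from 0.0214 to 0.0496). SFP1, an activator, was at 12.4 ± 0.624 against 14.1 ± 1.02 TPM. STB3, whose product binds RRPE, had the highest estimate of the list, a log2 fold change of 0.40 ± 0.22 (SE, limma adjusted p = 0.30). Its libraries overlapped, and it averaged 1.04 TPM, close to the filter.

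The promoter cores are given beside the changes as a description. Of the 7 members with both PAC and RRPE, RPA49 and RPA34 were called and 5 were not. RPC19 has PAC alone and RPA12 has neither, and these had the largest falls of the 9. The 7 members with both cores lay between -0.89 and -0.13 on the log2 scale. Over all tested genes, 21.6% of the 218 with both cores were called lower, and 8.35% of the 3845 with neither. The shares were 14.4% of the 993 with PAC and 15.6% of the 462 with RRPE, sets that include the genes with both. No test was run on these shares.

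The products of the enzyme could not be read from this table. Ribosomal RNA comes from near-identical repeats, and the rows of RDN18 and RDN58 stayed under 1 TPM in each library. The reason for these low values was not tested. The RDN25-1 row ranged from 0.555 to 37.9 TPM in dChr and from 0.239 to 10.5 TPM in control libraries (limma adjusted p = 0.631). RDN37-1, the full precursor, was at 0 in dChr library 2 and at 1.98 to 3.22 TPM in the other libraries (limma adjusted p = 0.405).

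The mean centred profile of the 9 members over the 6 libraries was lowest in dChr library 1, at -0.50 on the log2 scale, and highest in control library 2, at 0.48. Among 2972 other tested transcripts that averaged 10 TPM or more, the 3 nearest to it were UTP8, HAS1 and COQ2, at root mean square differences of 0.0503 to 0.0504 log2 units. UTP8 acts in the small-subunit processome, HAS1 is a nucleolar RNA helicase and COQ2 acts in coenzyme Q synthesis. Their log2 fold changes were -0.58, -0.63 and -0.55, a direction that the choice by likeness fixes. RPA34 lay nearest to the mean profile of the members, at 0.112 log2 units, and RPC19 farthest, at 0.558.

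Across the whole table, libraries summed to between 970077 and 992087 TPM, and TPM keep no sequencing depth, so the depth is unknown. Nuclear protein-coding genes took 41.2% to 48.8% of a library and assembled transcripts without coordinates 20.3% to 34.9%. Whether an assembled transcript took reads of a member was not tested. With the assembled transcripts left out, RPC19, RPA12 and RPA49 were called and RPA34 was not (limma adjusted p = 0.161).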

How the data were processed

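The authors deposited 1 table of TPM, a length-normalized abundance scaled to a fixed total per library, for 7554 transcripts in 6 libraries. Builds and tools come from the submitters' processing notes: sacCer3, cutadapt 2.6, HISAT2 2.0.5, StringTie 2.0, DESeq2 and R 3.6.0. The sources used here do not give their roles, filters or strand setting, so reads of antisense genes may be mixed. No count model was used on TPM.

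Values were analysed as log2(TPM + 1). The test was limma 3.58.1 under R 4.3.3 (trended eBayes, two-sided, Benjamini-Hochberg over 5938 transcripts averaging 1 TPM or more, threshold 0.05). Fold changes on this scale understate the change of low genes. Simulated data with 200 changed transcripts and independent normal noise were used to test the fit. All members were named; per list, every called gene or else the 2 highest by mean TPM. RRN6, RRN7, UAF30, TOP1, SPT15, HMO1, NET1, RPB4, RPC82, RPC53, RPC17, DOT6, SCH9 and SFP1 were named after their values were seen. So were STB3, RPB5 and RPC10. Members and lists were chosen with earlier results of these data known. Over all tested transcripts, same-numbered libraries deviated from their strain means with correlations of 0.09, -0.08 and 0.12, so the numbers were not taken as pairs. The mean profile of the members, however, was lowest in library 1 and highest in library 2 of each strain. With the replicate block the SE fell for each member except RPC19, as from 0.146 to 0.0599 for RPA190. That of RPC19 rose from 0.253 to 0.302. Scripts used Python 3.11.15, pandas 2.3.3 and matplotlib 3.10.9.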

Additional observations from a re-analysis of the deposited data

How the results depend on the processing

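RPA12 and RPA49 kept their calls under every alternative in which they were tested (limma adjusted p up to 0.0361 and 0.036), RPC19 in 15 of 16 and RPA34 in 6 of 17. No member changed direction. A mean of at least 10 TPM leaves RPC19, RPA49, RRN11 and TOD6 untested, and 2 members, 0 factors of the ribosomal DNA and 0 regulators were called. Leaving out a library gave 3 members in each case, 0 to 2 regulators, and over all transcripts 395 to 630 calls, 282 to 417 lower and 113 to 262 higher. The lowest came without dChr library 1. The ratio of RPC40 to RPB3 then ranged from -0.12 to 0.22, around 0.

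Median-ratio scaling gave 507 transcripts called higher, 1 polymerase II gene (RPO21), 1 polymerase III gene (RPC82) and 3 regulators; quantile normalization gave 555, 1, 1 and 2. Nuclear protein-coding genes alone gave 932 called lower, 5 members, 5 factors, 2 polymerase II genes, 2 polymerase III genes and 2 regulators. Polymerase III also had 1 call (RPC82) with a pseudocount of 5, with no filter and with no trend. Without the assembled transcripts, added after seeing the data, 161 transcripts were called higher. The replicate block gave 3 members, 1 polymerase II gene (RPB4) and 0 regulators. The cause was not tested. Depth is unknown.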
